A study of Mus musculus with 9 samples.

Results

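The genes described here encode the nuclear subunits of the mitochondrial oxidative phosphorylation machinery, and they were measured by RNA sequencing in whole mouse ovary. Members were the protein-coding symbols that begin with Ndufa, Ndufb, Ndufc, Ndufs or Ndufv (without the Ndufaf assembly factors), Cox4 to Cox8, Uqcr or Atp5, together with Sdha, Sdhb, Sdhc, Sdhd and Cycs. Of 89 such symbols in the RefSeq annotation, 86 had a row in the deposited table and 83 of these reached 1 FPKM (sequenced fragments per unit of transcript length and library size) in at least 1 group. They are 83 of 13640 protein-coding symbols at that level. Ndufb1, Ndufb4b and Ndufb4c had no row and were not analysed here, and no gene of the mitochondrial genome was included.

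Oxidative phosphorylation takes place in the inner mitochondrial membrane. Complex I (NADH dehydrogenase) and complex II (succinate dehydrogenase) pass electrons to ubiquinone, complex III passes them to cytochrome c, and complex IV (cytochrome c oxidase) passes them to oxygen. Complexes I, III and IV pump protons, and complex V (ATP synthase) uses the proton gradient to make ATP. In the ovary, mitochondria also house the first step of steroid synthesis, and the oocyte is known for its large mitochondrial load.

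Ovaries came from C57BL/6J mice aged 15 weeks, with 3 mice in each of 3 groups. Control mice ate standard chow with 16% fat. The other mice ate a 60% fat diet for 10 weeks and were grouped by outcome: HFLN mice remained lean and HFOB mice turned obese, so the response of the animal and not assignment set these groups. All mice shared strain, age and tissue, and no genetic alteration is labelled. The authors deposited 1 FPKM per gene and group, with a lower and an upper bound of unstated confidence level. Single mice were not analysed here, so no SD, n or p-value is attached to any value, and how many mice of a group share a difference is unknown. In whole ovary, fewer cells of a type and less RNA per cell cannot be told apart.

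The tissue carried its defining markers. All 9 granulosa markers, all 7 markers of theca and steroid-making cells and all 10 oocyte markers reached 1 FPKM. Of 8 skeletal muscle markers, Ckm, Acta1, Myh1, Myh2, Myh4 and Mb were below 1 FPKM, with Myh4 listed at 0 in all groups. Mylpf reached 4.001 (control), 3.85 (HFLN) and 4.27 FPKM (HFOB), and Tnnt3 1.14 FPKM in controls against 1.61 in HFLN ovaries and 1.37 in HFOB ovaries. Read totals per library are not in the table used here, so the depth behind each value is unknown.

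Promoters of the members are shown first because nuclear respiratory genes are known for sites of the transcription factors NRF-1 and GABP, the second of which binds ETS-type sequence. For each complex, the member with the lowest HFLN value relative to control was taken among those whose single RefSeq window held the NRF-1 letters in its first 270 bases (250 before to 20 after the start). Sequences are from RefSeq on GRCm38.p6, 5′ to 3′ on the gene's strand. Capitals mark matches to GCGCANGCG (NRF-1) or CCGGAAG (ETS) on either strand, and overlapping matches are counted once.
Ndufb4 (chr16:37654349-37654618, - strand): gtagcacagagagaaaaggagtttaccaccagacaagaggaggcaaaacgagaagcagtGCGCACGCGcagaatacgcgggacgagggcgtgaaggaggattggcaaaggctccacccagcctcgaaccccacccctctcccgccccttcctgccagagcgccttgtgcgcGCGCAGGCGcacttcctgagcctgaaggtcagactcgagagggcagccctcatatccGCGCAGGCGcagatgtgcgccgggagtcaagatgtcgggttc
Sdhd (chr9:50603830-50604099, - strand): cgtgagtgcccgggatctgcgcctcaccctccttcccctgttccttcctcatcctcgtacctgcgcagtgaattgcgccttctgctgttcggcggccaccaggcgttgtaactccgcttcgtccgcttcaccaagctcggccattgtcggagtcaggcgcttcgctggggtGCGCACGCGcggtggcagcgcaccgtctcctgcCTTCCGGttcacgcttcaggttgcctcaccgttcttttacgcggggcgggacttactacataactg
Uqcr11 (chr10:80406802-80407071, - strand): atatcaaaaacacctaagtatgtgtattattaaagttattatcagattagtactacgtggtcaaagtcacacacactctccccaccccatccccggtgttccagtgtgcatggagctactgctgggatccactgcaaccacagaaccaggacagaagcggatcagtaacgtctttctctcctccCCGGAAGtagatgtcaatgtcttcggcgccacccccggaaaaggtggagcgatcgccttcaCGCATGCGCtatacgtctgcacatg
Cox6a1 (chr5:115348939-115349208, - strand): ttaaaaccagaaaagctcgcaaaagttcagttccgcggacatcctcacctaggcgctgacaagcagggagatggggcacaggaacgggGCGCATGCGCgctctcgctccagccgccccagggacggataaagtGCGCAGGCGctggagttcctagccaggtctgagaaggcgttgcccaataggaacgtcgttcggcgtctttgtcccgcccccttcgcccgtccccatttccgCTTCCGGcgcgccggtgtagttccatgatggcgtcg
Atp5k (chr5:108434380-108434649, - strand): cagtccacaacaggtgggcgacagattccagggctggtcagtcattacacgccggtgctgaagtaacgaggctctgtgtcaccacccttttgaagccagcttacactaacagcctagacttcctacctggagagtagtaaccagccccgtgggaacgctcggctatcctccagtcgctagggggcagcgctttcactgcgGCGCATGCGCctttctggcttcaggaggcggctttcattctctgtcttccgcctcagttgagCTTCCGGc
The Ndufb4 window holds 3 NRF-1 matches and no ETS match, Cox6a1 holds 2 and 1, and the other windows 1 of each.

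Windows of 300 bases were found for 68 of the 83 members, 73 windows in all. NRF-1 letters occurred in 21 of them (28.8%), against 12.05% of 13823 windows of other protein-coding symbols of at least 1 FPKM. The ETS letters were in 23.3% of member windows and 16.1% of the others, and AANATGGC, the core letters of the factor YY1, in 23.3% and 7.63%. Median GC content was 57.7% in member windows and 60.3% in the others. In HFLN against control, the 20 members with NRF-1 letters had a median log2 difference of -0.24 and the 48 without a median of -0.30. The medians were -0.32 with and -0.28 without the ETS letters, and -0.28 and -0.30 for YY1. None of these differences was tested. A match is a run of letters and not a measured binding site.

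Nearly all subunit genes were lower in HFLN ovaries than in chow-fed controls. In HFLN, 79 of 83 members stood below control, with a median difference of -0.28 on the log2(FPKM + 1) scale, which understates differences of low genes. Among all 13640 protein-coding symbols 49.3% were lower and the median was 0.00. Member FPKM summed to 24330.0 (control), 19325 (HFLN) and 22483 (HFOB). No member passed the rule for a call, a log2 difference of at least 1 in size with deposited intervals apart, which 0.283% of 16932 rows met. The intervals of every member overlapped between HFLN and control, so each difference taken alone lies within the deposited error. Intervals apart, whatever the size, were found in 0.283% of rows for HFLN, 0.372% for HFOB against control and 0.207% for HFOB against HFLN. The upper bound lay 38.1% above the control value in the median member.

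**Figure D1:**
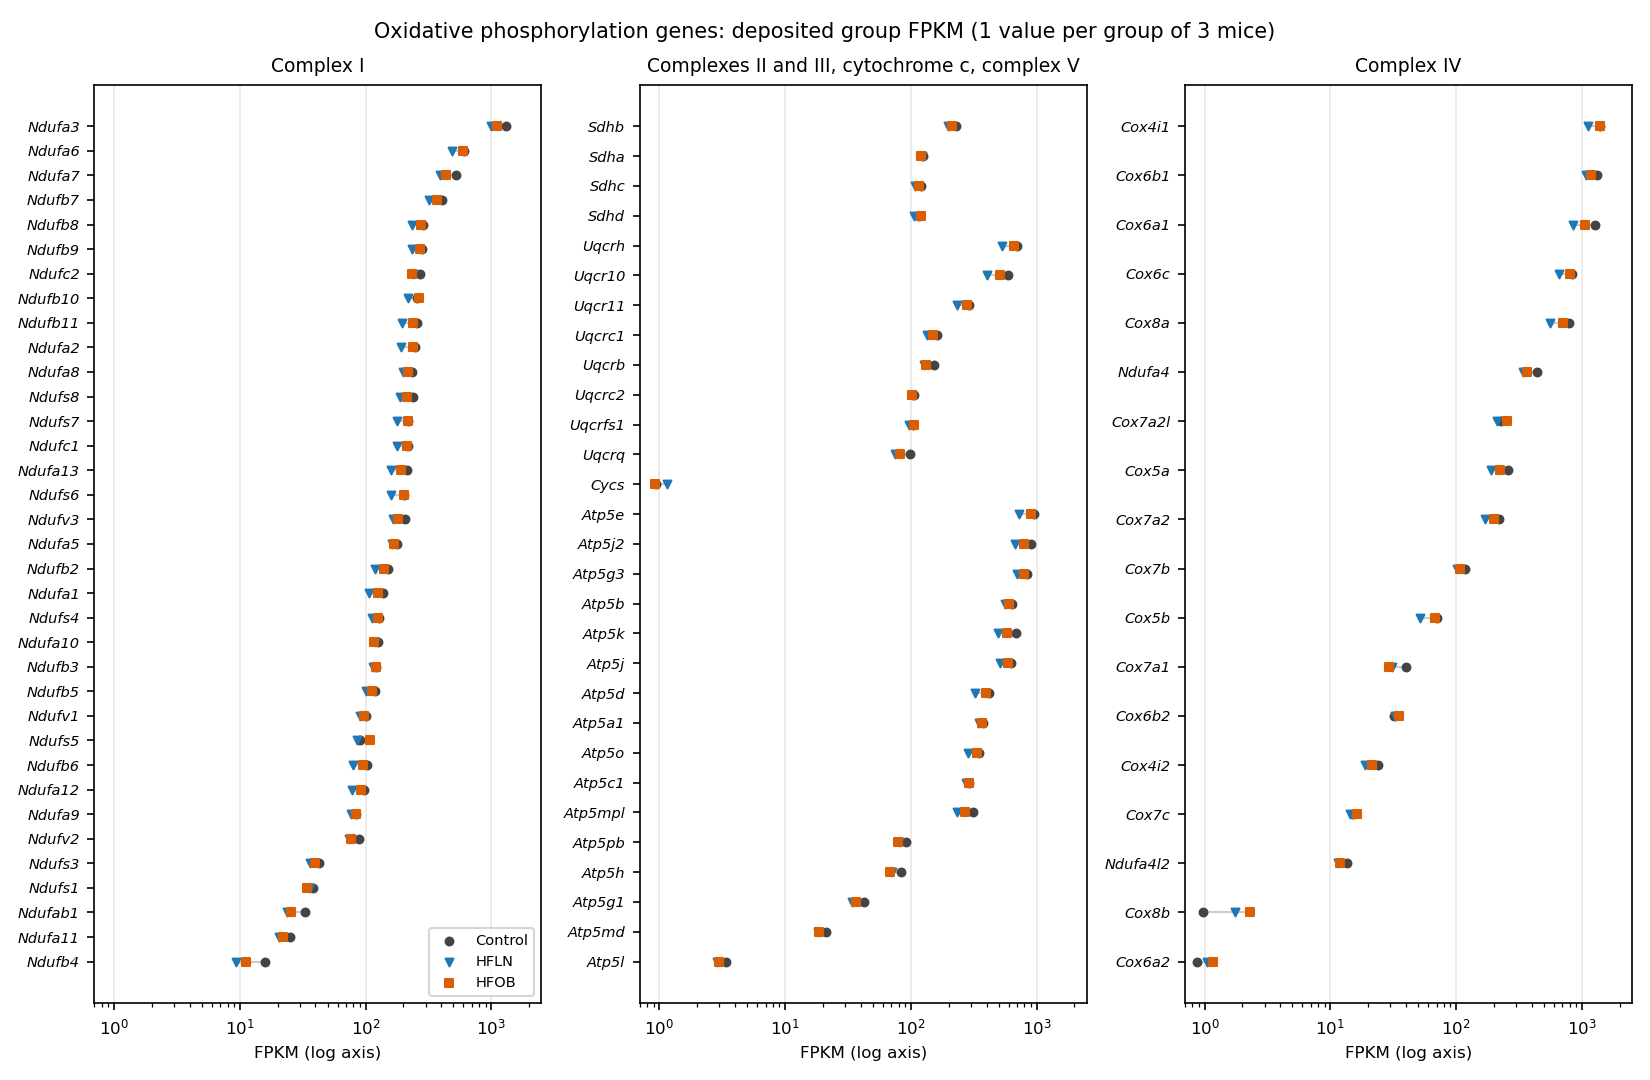
Deposited FPKM (horizontal log axis) of 82 of the 83 members, 1 row per gene, in control (circles), HFLN (triangles) and HFOB (squares), ordered by mean level within each complex. In most rows the HFLN triangle lies leftmost and the control circle rightmost, and the span within a gene is narrow beside the range between genes.

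HFOB ovaries mostly had subunit levels between those of the other groups. In HFOB, 72 of 83 members stood below control (median -0.09), against 53.3% of all protein-coding symbols, whose median was -0.01. Relative to HFLN, 74 of 83 were higher in HFOB (median 0.16), against 47% of all symbols and a median of -0.01. The order control above HFOB above HFLN held for 63 members, against 19.9% of all symbols, and 71 members were lowest in HFLN, against 32.4%. These counts share each group between comparisons and are not independent of each other. None was called in either comparison, where 0.366% of rows (HFOB against control) and 0.195% of rows (HFOB against HFLN) met the rule, and no member had intervals apart. These directions depend on the scaling of the groups. Deposited FPKM summed to less in the diet groups, and scaling all groups to the same sum shifts the median of all symbols by 0.19 in HFLN and 0.08 in HFOB against control. Under it the member median was -0.07 in HFLN, with 27 of 83 higher, and 0.00 in HFOB, with 42 higher, and complex II was at 0.06 in HFLN. The share of summed protein-coding FPKM held by the members was 4.33% (control), 3.99% (HFLN) and 4.26% (HFOB).

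**Figure D2:**
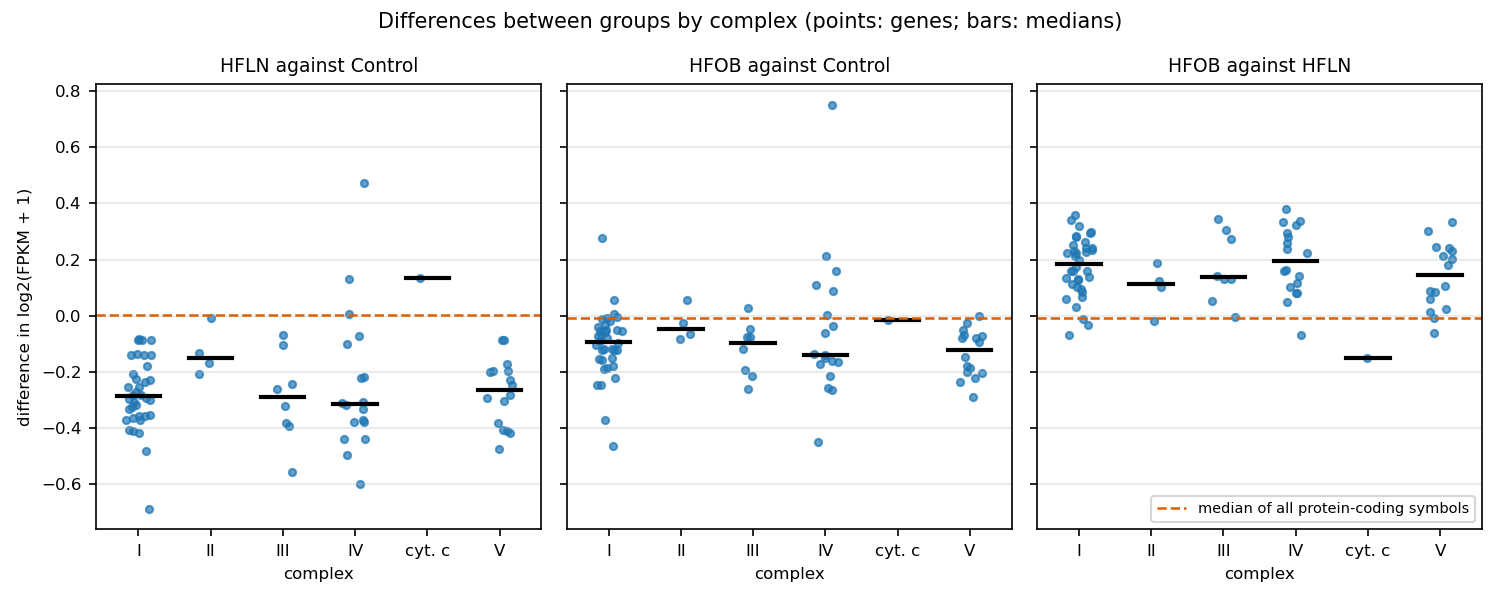
Differences in log2(FPKM + 1) between groups (vertical axis) for the members of each complex (horizontal axis), 1 panel per comparison. Points are genes, black bars are medians, and the dashed line is the median of all protein-coding symbols; the bars for complexes I to V lie below it in HFLN against control and above it in HFOB against HFLN.

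Short transcripts as a class were also lower in HFLN, which touches every result here, since the members' median transcript length was 714 bases against 2722 for all protein-coding symbols. Of 1130 protein-coding symbols with transcripts under 1000 bases, 72% were lower in HFLN than in control, 65% were lower in HFOB than in control and 68.6% were higher in HFOB than in HFLN. Within each length class the members had lower medians in HFLN than the other symbols. From 500 to 750 bases, 30 of 31 members were lower in HFLN, with a median of -0.30, against 71.0% and -0.15 for 369 other symbols. From 750 to 1000 bases the medians were -0.33 for 12 members and -0.11 for 596 others, and from 1000 to 2000 bases -0.20 for 18 members and -0.05 for 3289 others. Above 2000 bases they were -0.09 for 7 members and 0.03 for 9157 others. With the trend in length over all symbols removed, 73 of 83 members were lower in HFLN than in control, with a median of -0.12. The same step gave a median of -0.05 for HFOB against control, with 57 of 83 lower, and of 0.09 for HFOB against HFLN, with 63 of 83 higher. The part of transcript length in the group differences was not tested beyond these values.

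**Figure D3:**
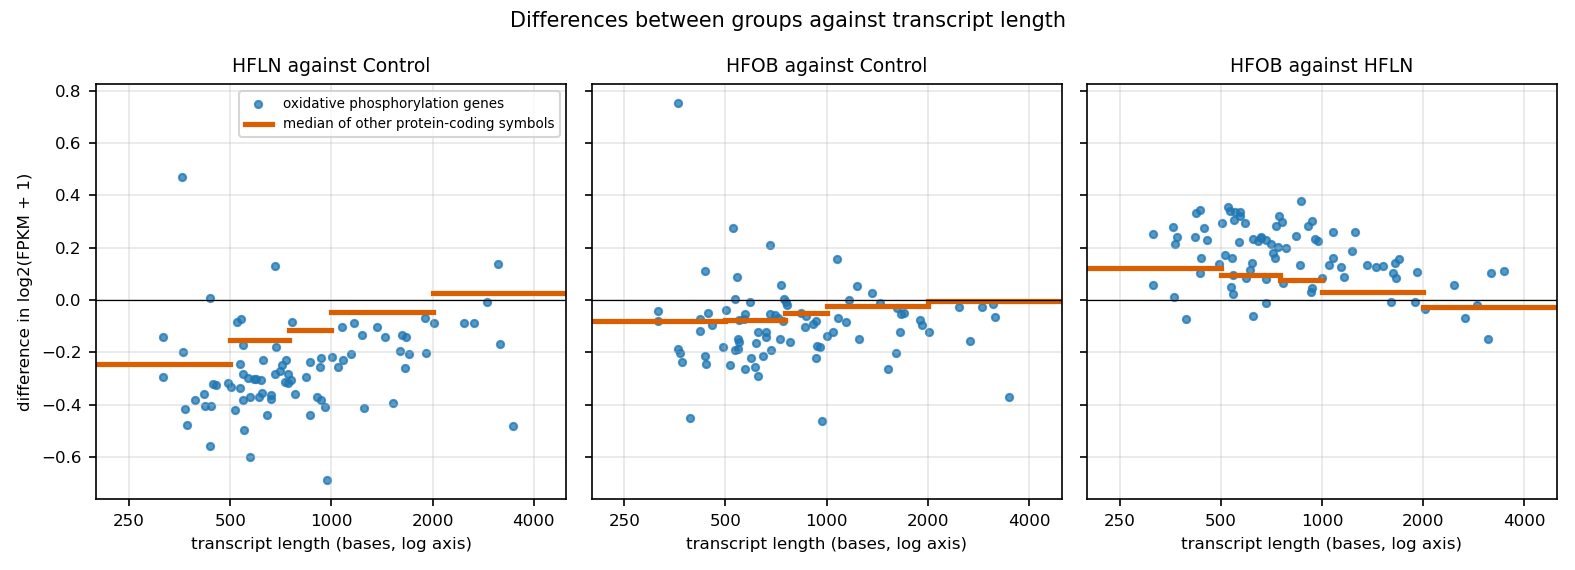
Differences in log2(FPKM + 1) (vertical axis) against transcript length in bases (horizontal log axis) for the members (points), 1 panel per comparison. Horizontal bars are medians of other protein-coding symbols in 5 length classes; in HFLN against control the bars rise from -0.24 below 500 bases to 0.03 above 2000 bases, and most points lie below them.

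Complex I contributed 36 members, and all 36 were lower in HFLN than in control, with a median of -0.29. In HFOB 33 of 36 were lower than in control, with a median of -0.09. Single values ranged from -0.69 to -0.08 in HFLN and from -0.46 to 0.27 in HFOB. The most abundant was Ndufa3, an accessory subunit (chromosome 7, 3617347 to 3620165), at 1319 FPKM with chow (bounds 529 and 2109), 986 in the lean group (bounds 420.2 and 1551) and 1112 in the obese group (bounds 457 and 1766). Ndufa6, an accessory subunit of the matrix arm, stood at 602 FPKM with chow, 488 in the lean and 599 in the obese group. Ndufa7 stood at 520.1 (control), 392 (HFLN) and 438 FPKM (HFOB). Control was highest and HFLN lowest for these 3 genes, and their intervals overlapped widely.

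The lowest value relative to control was that of Ndufb4, an accessory subunit of the membrane arm (chromosome 16, 37647602 to 37654368), at 15.8 FPKM with chow (bounds 4.39 and 27.2), 9.42 in the lean group (bounds 2.72 and 16.1) and 11.2 in the obese group (bounds 3.18 and 19.2). Its log2 difference was -0.69 in HFLN and -0.46 in HFOB, the lowest of all members in both, and its intervals still overlapped. Ndufa11, which ranked next lowest in level, stood at 25.2 FPKM in controls against 20.5 in HFLN ovaries and 22.01 in HFOB ovaries. Ndufs5, an accessory subunit, went another way: it stood at 89.9 FPKM with chow, 84.9 in the lean and 109 in the obese group, highest in HFOB, where its log2 difference from control was 0.27. Ndufab1 is the acyl carrier protein that also serves fatty acid and lipoate synthesis in mitochondria. It had the second lowest log2 difference of the complex in HFLN, -0.48, at 33.3 (control), 23.6 (HFLN) and 25.5 FPKM (HFOB). Its bounds were wide, at 2.35 and 64.3 in control, 5.13 and 42.0 in HFLN and 4.87 and 46.2 in HFOB. Ndufa13, which is also known as a cell death regulator, had a log2 difference of -0.41, at 213 FPKM in controls against 159.6 in HFLN ovaries and 192 in HFOB ovaries. Ndufb10 and Ndufs6 joined Ndufs5 as the 3 members of the complex not below control in HFOB: Ndufb10 was listed at 256 FPKM with chow, 218 in the lean and 266 in the obese group and Ndufs6 at 201 (control), 159 (HFLN) and 201 FPKM (HFOB), both level with control within their bounds. Ndufa10 and Ndufb3 had small differences in HFLN. Ndufa10 was listed at 126 FPKM in controls against 119 in HFLN ovaries and 116 in HFOB ovaries and Ndufb3 at 122 FPKM with chow, 115 in the lean and 120.2 in the obese group. Ndufb2 shares its row with the kinase-like gene Adck2, so its 150.3 (control), 119.7 (HFLN) and 141 FPKM (HFOB) hold reads of both.

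The 7 core subunits of complex I that are encoded in the nucleus form the arm that holds the flavin and the iron-sulfur clusters. All 7 were lower in HFLN, with a median of -0.26, beside -0.30 for the 29 accessory subunits. Median transcript length was 1046 bases in the core group and 659 bases in the accessory group. Ndufs1, the large iron-sulfur subunit, stood at 38.3 FPKM in controls against 35.99 in HFLN ovaries and 34.3 in HFOB ovaries, lowest in HFOB. Ndufs7, which holds the last cluster before ubiquinone, stood at 219 FPKM with chow (bounds 0 and 1924), 177 in the lean group (bounds 0 and 1339.8) and 218 in the obese group (bounds 0 and 1726); its bounds are too wide to order the groups. Ndufs8, another iron-sulfur subunit, stood at 240.4 FPKM with chow, 187 in the lean and 215 in the obese group. Of the flavoprotein arm that accepts electrons from NADH, Ndufv1 was listed at 100.2 (control), 90.9 (HFLN) and 96.5 FPKM (HFOB) and Ndufv2 at 89.03 FPKM in controls against 74.4 in HFLN ovaries and 76.1 in HFOB ovaries. Ndufs3 stood at 43.04 FPKM with chow, 35.9 in the lean and 39.4 in the obese group. HFLN was lowest in each of these last 4 genes.

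Complex II is the enzyme shared with the citric acid cycle and has all of its 4 subunits encoded in the nucleus. Its genes had the least difference of the 5 complexes in HFLN against control, with a median of -0.15, and all 4 were lower. Sdha, the flavoprotein, stood at 124 FPKM with chow (bounds 79.7 and 168), 123 in the lean group (bounds 79.4 and 167) and 122 in the obese group (bounds 78.4 and 165), nearly level across the groups. Sdhb, the iron-sulfur subunit, stood at 227 FPKM with chow (bounds 135 and 318), 196 in the lean group (bounds 124 and 268) and 214 in the obese group (bounds 131 and 297). Sdhc and Sdhd anchor the complex in the membrane. Sdhc stood at 121 (control), 108 (HFLN) and 116 FPKM (HFOB), and Sdhd at 117 FPKM in controls against 106 in HFLN ovaries and 121 in HFOB ovaries, slightly above control in HFOB. Median transcript length was 2066 bases, the longest of the complexes, and with the length trend removed the median for HFLN was -0.085.

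All 8 members of complex III were lower in HFLN, with a median of -0.29, and 7 of 8 were lower in HFOB (median -0.10). Uqcrh, the hinge protein that helps bind cytochrome c, stood at 694 FPKM with chow (bounds 441 and 948), 532 in the lean group (bounds 354 and 710.1) and 657 in the obese group (bounds 416 and 899). Uqcr10, a small membrane subunit (chromosome 11, 4701968 to 4704344), had the widest difference of the complex, at 591 FPKM with chow (bounds 374 and 809), 401 in the lean group (bounds 268 and 535) and 509 in the obese group (bounds 328 and 691). Uqcr11 stood at 291 FPKM with chow, 233 in the lean and 282 in the obese group. For all 3 genes HFLN was lowest and HFOB lay between. Uqcrb, another small subunit, was listed at 152 (control), 128 (HFLN) and 133 FPKM (HFOB).

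The larger subunits of complex III had a smaller median difference as a group. Uqcrfs1, the Rieske iron-sulfur protein, stood at 104 FPKM in controls against 96.8 in HFLN ovaries and 106 in HFOB ovaries, and Uqcrc2, a core protein, at 107 FPKM with chow, 102 in the lean and 101 in the obese group. Uqcrc1, the other core protein, stood at 162 (control), 135 (HFLN) and 149 FPKM (HFOB). The median difference in HFLN was -0.10 for these 3 and -0.38 for the 5 others, whose median transcript lengths were 1653 and 535 bases. Uqcrq, a small ubiquinone-binding subunit and the least abundant of the complex by its mean, stood at 98.6 FPKM in controls against 74.8 in HFLN ovaries and 82.003 in HFOB ovaries, with the lowest HFOB value relative to control in the complex, -0.26. Cyc1, the cytochrome c1 of the same complex, lies outside the naming rule and stood at 187 FPKM with chow, 148 in the lean and 167 in the obese group.

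Cycs, the somatic cytochrome c that shuttles electrons from complex III to complex IV, was listed near the limit of measurement. It stood at 0.9500 FPKM with chow (bounds 0.3001 and 1.5998), 1.14 in the lean group (bounds 0.374 and 1.91) and 0.9298 in the obese group (bounds 0.291 and 1.57), and was highest in HFLN, the group through which alone it passed the limit of 1 FPKM. For this gene, 9 annotated pseudogene transcripts matched at least 80% of its coding sequence at 90% identity or more. Excluding tissue-restricted isoforms, 8 members had 4 or more such copies. These were Atp5l with 13, Cycs with 9, Cox7c, Atp5h and Atp5md with 5, and Atp5g1, Cox7b and Uqcrb with 4. Their median in control was 31.8 FPKM, against 274.8 FPKM for the 24 members with 1 or 2 copies and 218 FPKM for the 45 without any. No source used here says how reads shared with such copies were assigned. In HFLN against control the median differences of these classes, in that order, were -0.21, -0.34 and -0.27. The part of such copies in the listed levels was not tested.

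Complex IV held 18 members, including Ndufa4 and Ndufa4l2, which carry complex I names but belong to this enzyme. Of these, 15 were lower in HFLN, with a median of -0.32, and 12 in HFOB, with a median of -0.14. The most abundant member of all was Cox4i1, the ubiquitous regulatory subunit (chromosome 8, 120668225 to 120674209), at 1397 FPKM with chow (bounds 808 and 1986), 1119 in the lean group (bounds 707 and 1532) and 1399.8 in the obese group (bounds 818 and 1982). Control and HFOB were level and HFLN lay below them. Cox6b1 stood at 1323 (control), 1069 (HFLN) and 1179 FPKM (HFOB). Cox6a1, the non-muscle isoform of subunit VIa (chromosome 5, 115345652 to 115348958), stood at 1281 FPKM with chow (bounds 760.0 and 1802), 845 in the lean group (bounds 571 and 1119) and 1066 in the obese group (bounds 679 and 1453). Its log2 difference of -0.60 in HFLN was the lowest of the complex, and the interval of HFLN reached well into that of control. Cox8a stood at 792 FPKM in controls against 560.5 in HFLN ovaries and 708 in HFOB ovaries, and Cox5b, a zinc-binding subunit, at 70.4 FPKM with chow, 51.6 in the lean and 67.4 in the obese group, the widest difference of HFOB from HFLN in the complex at 0.38. Cox5a, which pairs with Cox4i1 in assembly, was listed at 258 (control), 190.2 (HFLN) and 222 FPKM (HFOB), and Cox6c at 827 FPKM in controls against 657 in HFLN ovaries and 806 in HFOB ovaries. HFLN was lowest for both.

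**Figure D4:**
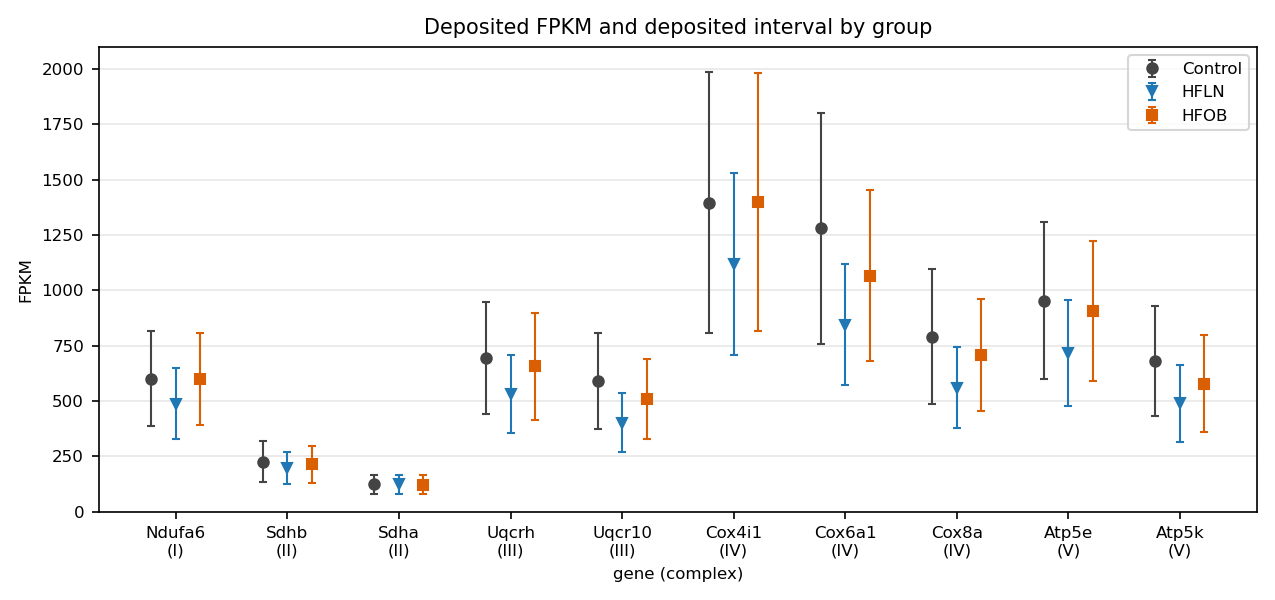
Deposited FPKM (vertical axis) of 10 members in control, HFLN and HFOB, with bars for the deposited lower and upper bounds. The HFLN marker is lowest for 9 of the genes, Sdha being level, and the bars of the 3 groups overlap for every gene.

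Isoforms that replace ubiquitous complex IV subunits in particular tissues were mixed, with 3 of the 6 measured lower in HFLN. Cox8b, the muscle and brown fat isoform of subunit VIII, was highest in HFOB, at 0.969 FPKM with chow (bounds 0 and 2.29), 1.73 in the lean group (bounds 0 and 3.72) and 2.32 in the obese group (bounds 0 and 4.83). Cox6a2, the striated muscle isoform of subunit VIa, stood at 0.877 FPKM with chow, 1.05 in the lean and 1.17 in the obese group. Both passed the limit of 1 FPKM only through the diet groups, so their being higher there was in part set by that limit. Cox7a1, the muscle and brown fat isoform of subunit VIIa, had the lowest HFOB value relative to control in complex IV, -0.45, at 40.3 FPKM with chow (bounds 14.04 and 66.5), 30.7 in the lean group (bounds 11.2 and 50.2) and 29.2 in the obese group (bounds 10.3 and 48.05), while its ubiquitous counterpart Cox7a2 stood at 219 (control), 168 (HFLN) and 198 FPKM (HFOB). Of 4 brown fat markers that reached 1 FPKM, 2 (Cox7a1 and Dio2) were lower in HFLN than in control and 2 (Cox8b and Cidea) higher. Cox7a1 and Cox8b are members themselves, so this list is not independent of the subunits. The 4 summed to 44.99 FPKM (control), 37.2 (HFLN) and 34.1 (HFOB), and Cox7a1 made up most of the sum in every group. Ucp1, which defines that tissue, was below 1 FPKM with 0.0152 FPKM in controls against 0.00759 in HFLN ovaries and 0.00676 in HFOB ovaries. Cidea stood at 2.19 FPKM with chow, 3.38 in the lean and 1.36 in the obese group, with lower bounds at 0 in all groups. The summed skeletal muscle list stood at 5.83 FPKM (control), 6.18 (HFLN) and 6.55 (HFOB) and the adipocyte list at 300.4 FPKM (control), 271 (HFLN) and 329 (HFOB). The adipocyte sum held 103 FPKM of Cfd in control, with bounds 0 and 744. Of 9 adipocyte markers, 7 were lower in HFLN than in control (median -0.24). In HFOB 5 were higher than in control (median 0.04) and 8 higher than in HFLN (median 0.34). Of these markers only Lep met the rule for a call. Its log2 difference in HFOB was 1.34 from control and 1.22 from HFLN, with intervals apart. Lep was below 1 FPKM in control and HFLN. Against control, Fabp4 (0.84), Cidec (0.80) and Adipoq (0.51) were also higher in HFOB, without a call. The 4 lower markers included Cfd at -0.72. The part of muscle and fat cells in these values was not tested.

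Of the other isoforms, Cox4i2, the lung isoform of subunit IV, stood at 23.9 (control), 19.02 (HFLN) and 21.4 FPKM (HFOB), with lower bounds at 0. Cox6b2, the testis isoform of subunit VIb, stood at 32.3 FPKM in controls against 32.5 in HFLN ovaries and 34.9 in HFOB ovaries, within its bounds in all groups. Ndufa4l2, a low-oxygen counterpart of Ndufa4, stood at 13.6 FPKM with chow, 11.5 in the lean and 11.9 in the obese group. Its lower bounds were also at 0 in all groups. Ndufa4 stood at 439 (control), 339 (HFLN) and 367 FPKM (HFOB). Cox7b, the ubiquitous counterpart of Cox7b2, stood at 118 FPKM in controls against 101 in HFLN ovaries and 107 in HFOB ovaries. Cox7b2 and Cox8c, both testis isoforms, did not reach 1 FPKM: Cox7b2 was at 0.0276 FPKM with chow, 0.0589 in the lean and 0 in the obese group and Cox8c at 0.0574 (control), 0.0375 (HFLN) and 0 FPKM (HFOB). Cox7a2l, a factor that joins complexes III and IV and is carried in a shortened form by C57BL/6 mice, was higher in HFOB than in both other groups, at 226 FPKM in controls against 210.3 in HFLN ovaries and 252 in HFOB ovaries. Without the tissue-restricted isoforms all 12 remaining complex IV members were lower in HFLN, with a median of -0.35.

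All 16 members of complex V were lower than control in both HFLN and HFOB, with medians of -0.27 and -0.12. Atp5e, the epsilon subunit of the central stalk, was the most abundant, at 953 FPKM with chow (bounds 598 and 1307), 719 in the lean group (bounds 479 and 958) and 906 in the obese group (bounds 589.9 and 1222). Its difference of HFOB from HFLN, 0.33, was the widest of the complex. Atp5j2, a membrane subunit, stood at 897 FPKM with chow, 675 in the lean and 793 in the obese group. Atp5k, a membrane subunit that supports pairing of ATP synthases (chromosome 5, 108433246 to 108434399), had the lowest HFLN value relative to control in the complex, at 681 FPKM with chow (bounds 434 and 929), 489 in the lean group (bounds 316 and 663) and 579 in the obese group (bounds 361 and 796). Large subunits of the catalytic head and central stalk had smaller differences in HFLN than the complex median. Atp5b, the beta subunit, stood at 642 (control), 558 (HFLN) and 601 FPKM (HFOB). Atp5a1, the alpha subunit, stood at 372 FPKM in controls against 351 in HFLN ovaries and 365 in HFOB ovaries. Atp5c1, the gamma subunit of the stalk, stood at 292 FPKM with chow, 275 in the lean and 292 in the obese group, level between control and HFOB. Their transcripts have 1916, 2471 and 1166 bases, beside a median of 728 for the complex. With the length trend removed, their HFLN differences were -0.18, -0.10 and -0.0007, beside -0.14 for the complex. Atp5b then no longer had the smaller difference. Atp5d, the delta subunit, stood at 419 (control), 322 (HFLN) and 397 FPKM (HFOB), with lower bounds at 0 in all groups. In the peripheral stalk, Atp5o, which confers oligomycin sensitivity, was listed at 351 FPKM in controls against 286 in HFLN ovaries and 339 in HFOB ovaries, Atp5pb at 91.8 FPKM with chow, 79.97 in the lean and 79.5 in the obese group and Atp5j at 624 (control), 513 (HFLN) and 590.2 FPKM (HFOB). Atp5mpl, a small membrane protein, was listed at 309 FPKM in controls against 232 in HFLN ovaries and 269 in HFOB ovaries, with HFLN lowest.

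The c-ring of ATP synthase, the rotor in the membrane, is encoded by 3 genes whose mature protein is the same. Atp5g3, with no near-identical pseudogene copy, was listed highest, at 832 FPKM with chow, 699.9 in the lean and 794 in the obese group. Atp5g1, with 4 such copies, was listed at 42.5 (control), 34.2 (HFLN) and 36.3 FPKM (HFOB). Atp5g2 did not reach 1 FPKM, at 0.288 FPKM in controls against 0.245 in HFLN ovaries and 0.242 in HFOB ovaries, and was outside the counts. Atp5h, a stalk subunit, was lowest in HFOB, at 83.1 FPKM with chow, 70.7 in the lean and 67.8 in the obese group. The 2 least abundant members of complex V that were counted were Atp5md, at 21.1 (control), 18.3 (HFLN) and 18.5 FPKM (HFOB), and Atp5l, at 3.399 FPKM in controls against 2.9001 in HFLN ovaries and 2.97 in HFOB ovaries, which both have at least 5 near-identical pseudogene copies.

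Assembly factors and citric acid cycle enzymes had medians nearer 0 in HFLN than the subunits. Of 14 complex I assembly factors 10 were lower in HFLN, with a median of -0.13, ranging from Ndufaf8 at -0.33 to Ndufaf7 at 0.05. Of 22 complex IV assembly factors 17 were lower, with a median of -0.08, from Cox14 at -0.35 to Cox11 at 0.19. The 6 factors of complex III had a median of -0.03, with Uqcc2 lowest at -0.42, and the 4 of complex V a median of -0.05, with Fmc1 lowest at -0.39. Enzymes of the citric acid cycle and pyruvate dehydrogenase had a median of -0.07 in HFLN and -0.07 in HFOB, with 14 and 15 of 18 lower. Mdh2, the mitochondrial malate dehydrogenase, was lowest among them in HFLN, at -0.28, and Idh3a highest, at 0.06. Median transcript length was 2512 bases in this list, 1530 for complex I factors and 1208.5 for complex IV factors. With the length trend removed, medians in HFLN were -0.083 for this list, -0.041 for complex I factors and 0.00 for complex IV factors. The subunits were then at -0.12. None of these genes was called.

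Mitochondrial ribosomal protein genes were lower in HFLN in 73 of 77 cases, with medians of -0.19 in HFLN and -0.05 in HFOB against control. With the length trend removed these were -0.14 and -0.01. Cytosolic ribosomal protein genes, which are short and abundant as well, had medians of -0.25 in HFLN, with 75 of 81 lower, and 0.05 in HFOB, with 27 of 81 lower. Genes of protein import into mitochondria were lower in HFLN in 15 of 17 cases, with a median of -0.26, led by the small import subunit Tomm7 at 197 FPKM with chow, 139 in the lean and 160.3 in the obese group. Glycolysis genes had a median of -0.19 in both comparisons with control. With the length trend removed, the medians in HFLN against control were -0.18 for import, -0.17 for glycolysis and -0.10 for cytosolic ribosomal proteins, beside -0.12 for the subunits, so the order of the lists depends on that step. Whether the subunits differ from any of these lists was not tested.

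**Figure D5:**
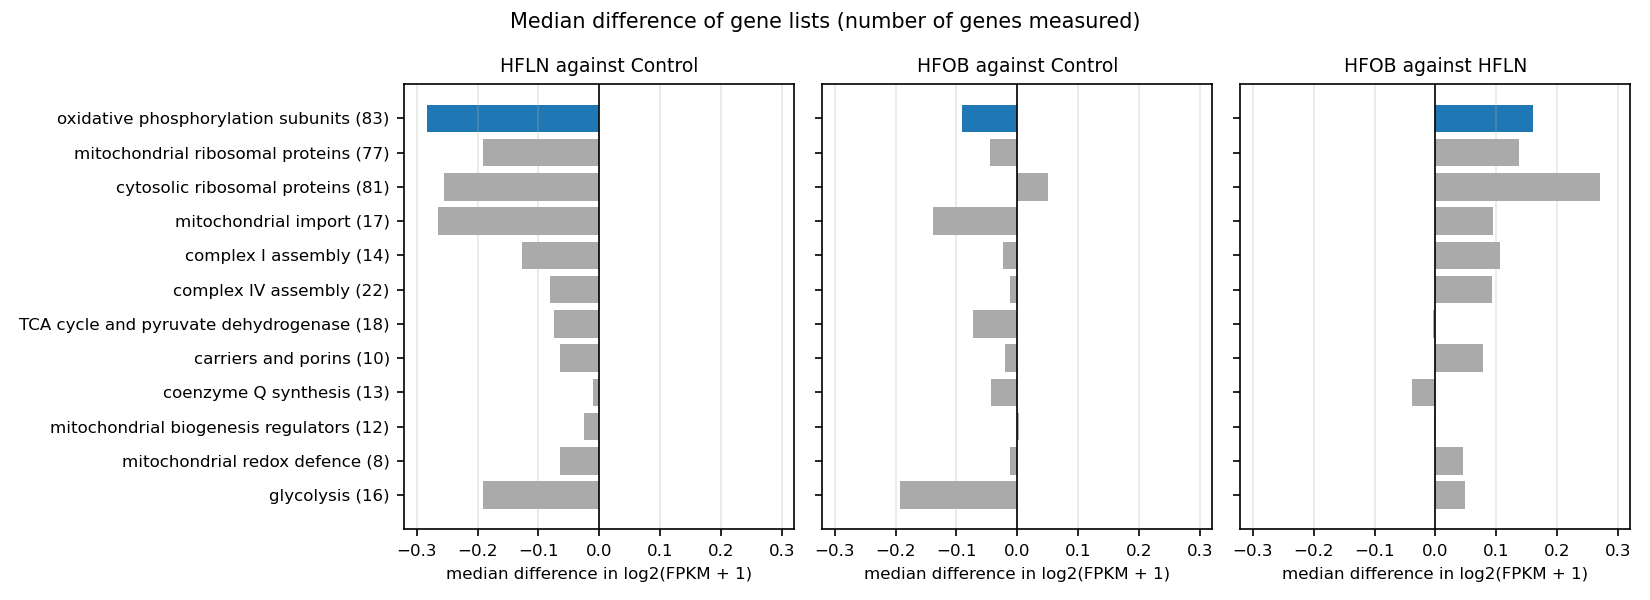
Median differences in log2(FPKM + 1) (horizontal axis) of the 83 oxidative phosphorylation members (blue) and of 11 other lists (grey), with the number of genes measured in parentheses, 1 panel per comparison. In HFLN against control the members have a median of -0.28, mitochondrial import -0.26 and the cytosolic ribosomal proteins -0.25, with no correction for length.

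Regulators of mitochondrial biogenesis were close to level. The 12 measured had a median of -0.03 in HFLN and 0.00 in HFOB. Nrf1, which encodes NRF-1, stood at 14.4 (control), 13.4 (HFLN) and 14.1 FPKM (HFOB), and Gabpa, the DNA-binding subunit of GABP, at 11.9 FPKM in controls against 13.02 in HFLN ovaries and 12.6 in HFOB ovaries. Tfam, which packages mitochondrial DNA, stood at 11.96 FPKM with chow, 11.9 in the lean and 11.5 in the obese group, and Esrra, a nuclear receptor that activates respiratory genes, at 362 (control), 347 (HFLN) and 337 FPKM (HFOB). Ppargc1a, the coactivator of this programme, was below 1 FPKM, at 0.435 FPKM in controls against 0.4602 in HFLN ovaries and 0.479 in HFOB ovaries. Pprc1, a related coactivator, had the lowest HFLN value of the list, at -0.28.

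Marker lists of the cell types in the tissue differed in direction. In HFLN, 8 of 9 granulosa markers were lower than control with a median of -0.28, and in HFOB 6 of 9 with a median of -0.12. Their summed level was 2759 FPKM (control), 2272 (HFLN) and 2403 (HFOB). Inha made up most of this sum, at 1712 FPKM (control, bounds 529 and 2895), 1360 (HFLN) and 1465 (HFOB). Theca and steroid-making markers had medians of -0.23 and -0.24, with sums of 7557 FPKM (control), 6608 (HFLN) and 6709 (HFOB). Cyp11a1 and Hsd3b1, with lower bounds of 0 in all groups, made up most of these sums. In HFLN 5 of 7 were lower than control, while Star (0.64) and Lhcgr (0.10) were higher. Luteal markers were split: 2 of 6 were lower in HFLN, with a median of 0.05, and 5 in HFOB, with a median of -0.31. Their sum of 3031 FPKM (control), 1457 (HFLN) and 1773 (HFOB) was mostly Akr1c18, an enzyme that inactivates progesterone, and without it was 359 FPKM (control), 373 (HFLN) and 277 (HFOB). Erythrocyte markers, counting the shared row of Hba-a1 and Hba-a2 once, were lower in HFLN in all 4 cases, with medians of -0.71 in HFLN and -0.25 in HFOB against control and 0.40 in HFOB against HFLN. They summed to 246 FPKM (control), 138 (HFLN) and 183 (HFOB). Smooth muscle and macrophage markers had medians of 0.01 and -0.03 in HFLN and of 0.19 and 0.05 in HFOB. Oviduct and cilia markers, a list named for tissue next to the ovary, were higher than control in HFLN in all 7 cases and lower in HFOB in all 7. They summed to 472 FPKM (control), 605 (HFLN) and 379 (HFOB), and their source was not tested. Oocyte markers had medians of 0.00 in HFLN and 0.09 in HFOB. The part of cell composition in the subunit differences was not tested.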

How the data were processed

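Ovarian RNA of 9 mice was sequenced, and the authors combined the 3 animals of each group. Per the submitters' processing notes, the tools were TopHat2 2.1.0 and Trimmomatic 0.32.3 for reads, then Cuffdiff 2.2.1.3 with Cufflinks 2.2.1.0, on mm10. A stranded mRNA kit was used, per the labels' protocols. The sources used here give no annotation, scaling or strand setting. Per the file headers, the deposited values are FPKM per group with bounds in FPKM and a status, which was OK for all members.

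Of 36886 RefSeq identifiers in 33450 rows, 99.2% matched the RefSeq table of GRCm38.p6, from which symbols and gene spans (counted from 1) were taken. Each symbol took its row of highest mean FPKM. Ndufa13 had a further row at 97.8, 87.6 and 97.6 FPKM in control, HFLN and HFOB, and Uqcrfs1 another at 1.04, 1.17 and 1.22. All 83 member rows overlapped their annotated gene, and 27 members overlap another annotated gene. Ratios were taken as differences of log2(FPKM + 1), on rows of at least 1 FPKM in any group. With 1 value per group there was no test, and members were called by a rule of size: a log2 difference of at least 1 and intervals apart. Transcript lengths came from GENCODE M21 for 99.5% of symbols, trends were removed by lowess (fraction 0.3, statsmodels 0.14.6), and pseudogene copies were found with blastn 2.17.0. Calling and the removal of trends in length, or in length and GC, were tested on simulated data with larger changes and narrower bounds than the members have. Removal of the level trend was not tested in this way. Member differences ran from -0.69 to 0.75 over the 3 comparisons. None reached the limit of 1 in size, so the rule could call none of them, whatever their intervals.

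Members and lists were chosen with earlier results of these data known. Genes named were, per complex, the 3 highest and 2 lowest in level, the highest and lowest difference per comparison, isoform pairs, all Sdh genes, Cycs, and members at the 1 FPKM limit or on merged rows. The rule also asked for the extremes of each other list in every comparison, given here mainly for HFLN against control. Core subunits, members with many pseudogene copies, and further list members were named after their values were seen. The values of 1 member are not reported here, and it stays in the counts and medians.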

Additional observations from a re-analysis of the deposited data

How the results depend on the processing

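Of 321 values recomputed under other settings, 275 stayed within the tolerance (1.5 times for counts, 0.1 log2 and the same sign for medians), 46 moved and 0 counted as reversed, a term kept here for called values, so medians that changed sign count as moved. The 275 are no measure of how firm the results are. They include the counts of called members, and values that a setting could not alter. The tolerance is also wide beside the HFOB medians against control. Complex I went from -0.093 to -0.0030 there under summed scaling and was counted as within it. No member was called under any setting tried. With the length trend removed, medians in HFLN against control were -0.12 for all members, -0.12 for complex I, -0.14 for III, -0.13 for IV and -0.14 for V, and 0.089 for IV in HFOB against HFLN. With length and GC trends removed, chosen after seeing the data, they were -0.11, -0.10, -0.17, -0.13 and -0.13, and in HFOB against HFLN 0.068 for I and 0.083 for IV. With the trend in level removed they were -0.14, -0.16, -0.14, -0.15 and -0.15, with -0.038 for complex II, which stood at 0.0035 in HFOB against control. Scaling to the same summed FPKM gave -0.070 for all members, -0.079 for I, 0.062 for II, -0.079 for III, -0.11 for IV and -0.053 for V in HFLN against control. It gave 0.00028 for all members and 0.044 for II in HFOB against control. In HFOB against HFLN it gave 0.044 for all members, 0.063 for I, -0.0086 for II, 0.015 for III, 0.074 for IV and 0.022 for V. Without members that have a pseudogene copy, also chosen after seeing the data, complex III was at -0.18 in HFLN, and 45 members were higher in HFOB than in HFLN, since fewer were counted.

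Members higher in HFLN than control numbered 4 as reported, 1 at a limit of 10 FPKM, 1 without tissue-restricted isoforms, 8 with length and GC trends removed, 10 with the length trend, 14 with the level trend and 27 under summed scaling. Those higher in HFOB than control numbered 11 as reported, and 25, 26, 27 and 42 under these last 4 settings. Where not shown by the setting itself, the cause was not tested. No paired analysis was possible because only 1 value per group was used, and leaving out single animals was not run for the same reason. The depth of the libraries is unknown, and the deposited bounds limit what can be said of any single gene.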
